A study of Abies pinsapo with 12 samples.

Results

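MADS-box proteins are transcription factors that bind DNA as dimers and, in seed plants, take part in the passage from vegetative to reproductive growth and in the identity of the organs of flowers or cones. SOC1 is known from Arabidopsis as a MADS-box factor that brings together signals for flowering time, and DAL19 is a Norway spruce MADS-box gene related to the SOC1 group that has been studied in cone-setting shoots. AGAMOUS of Arabidopsis specifies reproductive organs, but "Agamous-like" is a name given to many MADS-box proteins, so that it does not fix a subfamily.

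The transcripts described are DAL19 (ap_10727), SOC1 (ap_71580) and Agamous-like (ap_16931), 3 of the 76481 assembled transcripts of Spanish fir (Abies pinsapo) in the count table. They were taken by identifier because the study lists them among the transcription factors with different levels in bluish and green needles, DAL19 and SOC1 as higher in green trees and Agamous-like as higher in bluish trees. The comparison of colours in these 12 libraries therefore chose them, and their colour differences are given as a description. Needles were sampled in spring from adult trees growing in the field in Sierra de las Nieves, Spain, 6 with bluish and 6 with green needles, with no treatment, and developing needles were avoided. Each library is 1 individual tree, and genotypes of the trees were not used here. The best database hit given by the study was a Norway spruce protein for both DAL19 and SOC1.

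Library totals lay between 64978939 and 91973481 counts, with a median of 70494630.5 in bluish trees and 79832184.5 in green trees. Levels are in CPM, that is counts scaled to the size of a library after TMM correction for its composition by edgeR, and each error is the SD between trees within a colour. The median correlation of a library with the others of its colour was between 0.923 and 0.948, and no library stood apart on this measure. The RuBisCO small subunit and both chlorophyll a-b binding transcripts used as needle markers were detected in 12 of 12 libraries and a photosystem I subunit in 11. In bluish trees the RuBisCO transcript (ap_72505) was low, at 0.295 to 0.892 CPM. The chlorophyll a-b binding transcripts ap_86407 and ap_16219 were at 0.471 to 1.22 and 0.423 to 1.76 CPM there. Each is a single contig, so its level is not that of its whole gene family. Their detection does not by itself establish the tissue. Differences between colours are given as logFC on the log2 scale, positive when bluish trees are higher. The RuBisCO transcript had a logFC of −3.11 (0.616 ± 0.230 CPM in bluish, 5.32 ± 5.66 CPM in green trees) and the chlorophyll a-b binding transcripts −2.76 and −2.66, the direction of DAL19 and SOC1, while the photosystem I subunit had 0.77 and no count in green tree 6. The study itself reports this RuBisCO transcript, and transcripts for chlorophyll a-b binding proteins, as higher in green trees. The differences of these markers are therefore given as a description, and their part in the results was not tested. The RuBisCO and chlorophyll a-b binding transcripts were highest in green tree 4 and next in green tree 3. DAL19 and SOC1 were highest in green trees 5 and 1. Without green trees 3 and 4 together, the logFC was −1.91 for DAL19, −1.66 for SOC1 and 1.56 for Agamous-like. This does not test the part of these markers, since the RuBisCO transcript was higher in all 6 green trees than in every bluish tree. Contig lengths were not used here, so levels are compared between trees and not between transcripts. Fewer cells of a type that express a gene and less RNA per cell cannot be told apart in these bulk samples.

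The mean level of DAL19 was 0.546 ± 0.310 CPM for bluish needles and 1.84 ± 1.03 CPM for green needles (SD, n = 6 each). In bluish trees its level ran from 0.228 to 0.962 CPM with a median of 0.548, which corresponds to between 16 and 64 counts. In green trees it ran from 0.484 to 3.05 CPM with a median of 1.93, or between 32 and 260 counts. Green trees 1, 2, 3 and 5 lay above every bluish tree, while green trees 4 and 6, at 0.837 and 0.484 CPM, lay inside the range of the bluish trees. The logFC was −1.76 (SE 0.518). DAL19 met the filter of the fit (2 CPM in 2 libraries) only through green trees, with 2 green and 0 bluish libraries at that level.

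The counts behind the lowest values were small. The 16 counts of DAL19 in bluish tree 3 stand for about 8 read pairs, whose 95% Poisson interval was 0.0997 to 0.455 CPM. In green tree 5 the interval was 2.55 to 3.62 CPM, and in green tree 6 it was 0.277 to 0.787 CPM. Green trees 5 and 6 thus differed by more than counting error, which is all that these intervals cover.

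**Figure D1:**
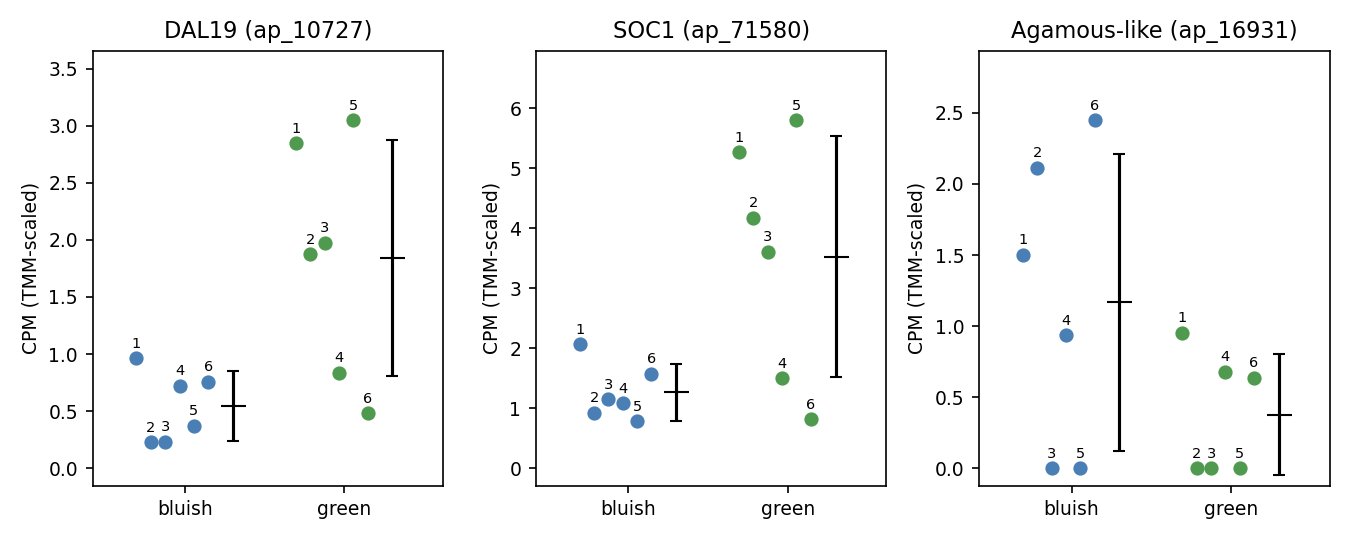
Level of DAL19, SOC1 and Agamous-like in CPM (vertical axis, TMM-scaled) in each bluish and green tree. Points are trees with their number, and the bar beside them gives the mean ± SD of the 6 trees. In DAL19 and SOC1, green trees 1, 2, 3 and 5 lie above all bluish trees and green trees 4 and 6 do not, and Agamous-like is at 0 in 5 of the 12 trees.

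SOC1 divided the trees in the same way. Its level was 1.27 ± 0.478 CPM in bluish trees, from 0.781 to 2.07 CPM with a median of 1.12. In green trees it was 3.53 ± 2.00 CPM, from 0.817 to 5.80 CPM with a median of 3.89. Again green trees 1, 2, 3 and 5 lay above every bluish tree, and green trees 4 and 6 were at 1.50 and 0.817 CPM, within the bluish range. Its logFC was −1.48 (SE 0.434). The highest trees were green trees 5 and 1 for both transcripts, and the highest bluish tree was tree 1 for both.

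The spread between green trees was wide in both transcripts. From the lowest to the highest green tree DAL19 differed 6.29-fold and SOC1 7.10-fold, against 4.22-fold and 2.66-fold between bluish trees. The coefficient of variation of SOC1 was 37.8% in bluish and 56.7% in green trees, and that of DAL19 was 56.8% and 56.0%. For DAL19 the difference between the colour means was larger than the SD of either colour, and for SOC1 the SD of the green trees was 0.885 times that difference.

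Agamous-like had an on/off pattern. No count was found in bluish trees 3 and 5 and in green trees 2, 3 and 5. In these 5 libraries a count of 0 allows a level of up to 6 counts (3 read pairs), which is between 0.0694 and 0.0866 CPM. In the 7 other trees it lay between 0.636 and 2.45 CPM, with the lowest, green tree 6, at 42 counts. The 4 bluish trees with counts were at 1.75 ± 0.669 CPM (SD, n = 4) and the 3 green trees with counts were at 0.756 ± 0.172 CPM (SD, n = 3). These trees overlapped, since the lowest of the 4 bluish trees, tree 4, was at 0.936 CPM and the highest of the 3 green trees, tree 1, at 0.953 CPM.

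Over all 6 trees of a colour, Agamous-like was at 1.17 ± 1.04 CPM in bluish and 0.378 ± 0.428 CPM in green trees, with medians of 1.22 and 0.318 CPM. The logFC was 1.62 (SE 1.41), and the SD of the bluish trees was 1.32 times the difference between the means. Its biological coefficient of variation estimated by edgeR was 1.95, against 0.623 for the trend of transcripts at its level. For DAL19 the values were 0.596 and 0.570, and for SOC1 0.521 and 0.453, so that these estimates lay near that trend. They are estimates of the fit and not a separate measure of the spread between trees. Agamous-like met the filter only through bluish trees 2 and 6.

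Of the 3 transcripts, 0 passed FDR < 0.05 and |logFC| > 1 in the quasi-likelihood test of edgeR, adjusted after Benjamini and Hochberg over 23352 transcripts tested, where 0.00428% of all transcripts were called. Since this contrast chose the 3 transcripts, nothing is read from that count. Before adjustment, 2 of them and 1478 of all transcripts tested were at p under 0.05. DESeq2 (0.0942% of all transcripts called), the likelihood ratio test (0.0642%) and the exact test with transcript-wise dispersions (0.0557%) of edgeR also called 0 of the 3. The exact test with 1 common dispersion called all 3, with 1.94% of all transcripts called. The study lists all 3 as different, with edgeR and the same filter and thresholds. It does not name the edgeR test, so which of these tests it ran is not known here. Leaving out each tree in turn, the logFC stayed between −1.99 and −1.54 for DAL19, between −1.68 and −1.28 for SOC1 and between 1.30 and 2.15 for Agamous-like. The bounds of −1.54 and 1.30 come from fits without the filter, used where the loss of a tree dropped the transcript below it.

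Whether the 3 transcripts vary together from tree to tree was examined after the mean of each colour was subtracted from log2(CPM + 0.5). The colour means were taken out because the colours had been used to choose the transcripts. The filter of the fit also depended on single trees. DAL19 met it only through green trees 1 and 5, and Agamous-like only through bluish trees 2 and 6. SOC1 met it with 4 green libraries and 1 bluish library, so it too needed green trees to pass. The permutation p-values are therefore not wholly independent of how the transcripts were chosen. DAL19 and SOC1 varied together. Over the 12 trees Pearson's r was 0.94 (permutation test within colours with 100000 draws, two-sided, p = 0.0002, and 0.0006 after adjustment over the 3 pairs). Spearman's rho on ranks within colours was 0.83 (permutation p = 0.00343). Without green trees 1 and 5, the trees farthest from the median of DAL19, r was 0.90. With the colour means kept, r was 0.96, which in part repeats the choice of the transcripts.

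The relation was also taken within each colour. In green trees r was 0.99 (exact permutation test over 6 trees, two-sided, p = 0.00417, and 0.025 after adjustment over the 6 within-colour relations) and rho was 0.94 (exact p = 0.0167). In bluish trees r was 0.76 (exact permutation p = 0.0889, adjusted 0.267) and rho was 0.71 (exact p = 0.136), so that the relation did not pass the test in bluish trees alone. Whether it differs between the colours was not tested. Bluish trees 2 and 3, with 17 and 16 counts of DAL19, lay lowest.

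**Figure D2:**
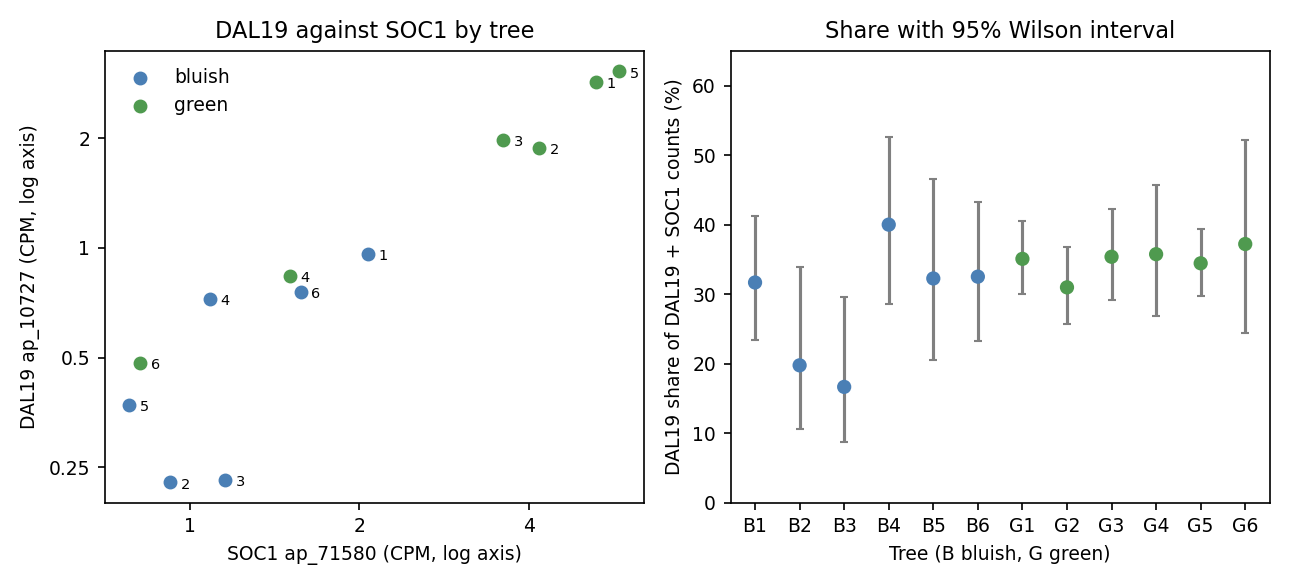
Left, DAL19 against SOC1 in CPM on log axes, 1 point a tree with its number. Right, percent of the summed DAL19 and SOC1 counts that fell on DAL19 in each tree, with 95% Wilson intervals. Green trees differ 6.29-fold in DAL19 while their shares stay between 31.0% and 37.2%, and bluish trees 2 and 3 are lowest at 19.8% and 16.7%.

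DAL19 took 34.8% ± 2.09 of the summed counts of DAL19 and SOC1 in green trees (SD, n = 6), from 31.0% in tree 2 to 37.2% in tree 6, although the sum itself ran from 1.30 to 8.85 CPM. All 6 Wilson intervals of the green trees, on read pairs, shared the range from 30.0% to 36.8%. Those of the bluish trees shared the range from 28.6% to 29.6%. Over the trees of both colours no range was shared, as the highest lower bound was 30.0% and the lowest upper bound 29.6%. Intervals that share a range do not test whether shares are equal, and equality within a colour was not tested. In bluish trees the share was 28.8% ± 8.81, from 16.7% in tree 3 (interval 8.70% to 29.6%) to 40.0% in tree 4 (28.6% to 52.6%). These are shares of counts and not of molecules, because the lengths of the contigs enter them. This share was chosen after the values were seen. If the contigs have near-identical stretches, a read could be placed on either, and the part of shared reads in this relation was not tested because no sequence was used here.

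No relation of DAL19 or SOC1 with Agamous-like was shown. With 12 trees, 5 of them without a count of Agamous-like, a relation is not excluded. For DAL19 and Agamous-like r was 0.01 (permutation p = 0.964, adjusted over the 3 pairs 0.964) and rho was 0.04 (permutation p = 0.916). For SOC1 and Agamous-like r was −0.08 (permutation p = 0.786, adjusted 0.964) and rho was 0.10 (permutation p = 0.774). In bluish trees both pairs had a positive r, 0.48 and 0.50, and in green trees a negative one, −0.42 and −0.47, with exact permutation p between 0.300 and 0.417 for these 4 values. Without green trees 1 and 5 the pooled values were −0.02 and −0.14.

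Depth was set beside these levels. After the colour means were subtracted, r with the log2 library total was 0.30 for DAL19, 0.45 for SOC1 and −0.38 for Agamous-like (permutation p 0.447, 0.261 and 0.188, with rho −0.14, −0.03 and −0.30 and permutation p 0.698, 0.964 and 0.379). Without the 2 libraries of most extreme total, r was 0.09, 0.22 and −0.19. The TMM factor gave r of −0.41, −0.64 and 0.20 (permutation p 0.269, 0.0707 and 0.494, with rho −0.20, −0.60 and 0.19 and permutation p 0.574, 0.0626 and 0.573), and −0.34, −0.60 and −0.03 without the 2 most extreme libraries. Adjusted over these 6 relations, p was at least 0.404. With library totals alone in place of TMM scaling, r of DAL19 and SOC1 was 0.94.

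Among all other transcripts tested, SOC1 was the one most like DAL19. The measure was r over the 12 trees after subtraction of the colour means, given as a description because it was taken over 23351 candidates. DAL19 had r = 0.94 with SOC1, 0.91 with ap_51413 and 0.91 with ap_17019. For SOC1 the closest were ap_2900 and ap_28000, each at r = 0.94, followed by DAL19. As a ratio of highest to lowest tree, both spanned a narrower range than SOC1, with ap_28000 between 7.37 and 13.7 CPM over all trees and ap_2900 at no more than 39.7 CPM and, in bluish trees, no less than 30.6 CPM. For Agamous-like the closest were ap_6920 with r = 0.90, ap_2301 with 0.89 and ap_6905 with 0.87. Of these, ap_2301 had the widest range, from 0 to 60.0 CPM in green trees. The study's annotation names ap_2301 as a nonspecific lipid-transfer protein of Sitka spruce, and the others are given by identifier.

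The presence of Agamous-like was compared with that of other transcripts, with at most 6 counts in a library taken as absent. Of the 23352 transcripts tested, 442 (1.89%) were absent from at least 1 tree, and 37 were absent from exactly 5 trees. None of the others, 0 of 23351, was absent from the same 5 trees as Agamous-like and present in the same 7. Since the 37 include Agamous-like itself, few transcripts could have matched, and nothing is read from this 0.

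The other regulators were taken from the study's annotated table as far as it could be read here, which runs in order of the study's p-values for the same contrast, so that the list was chosen on these trees. It holds a second transcript named SOC1 (ap_71394), a transcript named as a truncated MADS-box factor (ap_14490), an MFT1 transcript (ap_10455) of the family of the flowering signals FT and TFL1, a pair of YABBY transcripts (ap_5842, ap_3315), which in Arabidopsis act in the lower side of leaves, an APETALA 2-1 transcript (ap_82587), named for a factor of floral organ identity in Arabidopsis, and a Floricaula/leafy-like transcript (ap_8745), a relative of the meristem identity factor LEAFY. Of these 7 transcripts, 0 were called by the quasi-likelihood test or by DESeq2, and 3 were at p under 0.05 before adjustment. Over all transcripts tested, 0.00428% and 0.0942% were called by these tests and 1478 of 23352 were at p under 0.05, and nothing is read from the counts of this list. The logFC was positive in 5 and negative in 2, with a median of 0.59 beside −0.0038 over all transcripts tested.

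**Figure D3:**
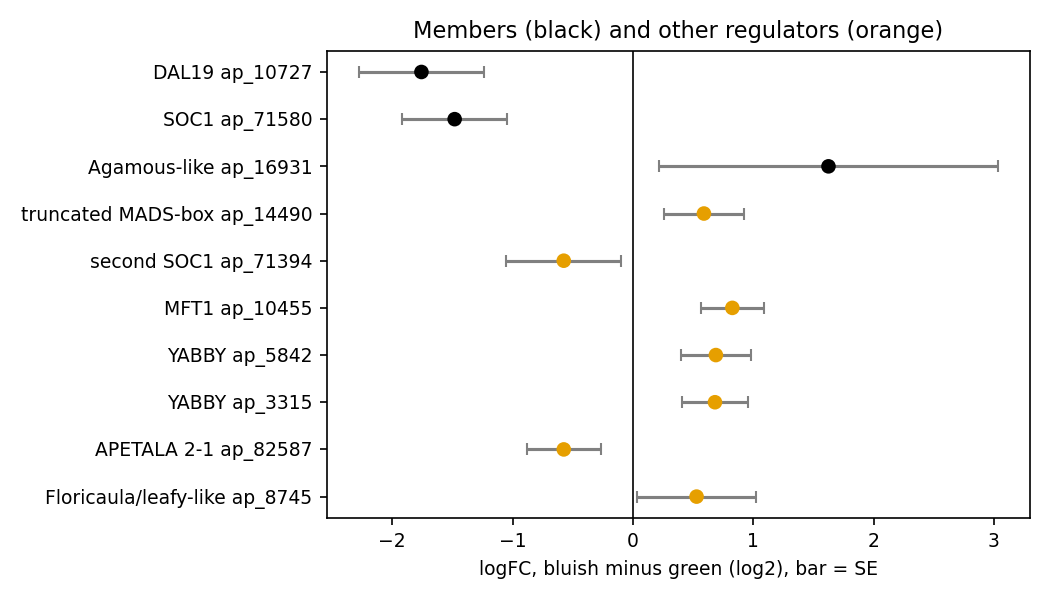
logFC of the 3 transcripts (black) and the 7 other regulators (orange) on a log2 scale, bluish minus green, with bars of 1 SE. The other regulators lie between −0.57 and 0.83, and Agamous-like has the widest bar (SE 1.41).

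The second SOC1 transcript, ap_71394, was set beside ap_71580 because the study gives both the same best database hit. It was at 2.75 ± 1.74 CPM in bluish trees, from 0.587 to 5.45 CPM with a median of 2.45. In green trees it was at 4.10 ± 2.15 CPM, from 1.75 to 6.75 CPM with a median of 4.09. Its logFC was −0.57 (SE 0.480), and the spread in green trees was 1.60 times the difference between the means. The logFC was −0.36 without bluish tree 6, −0.37 without green tree 4 and −0.89 without bluish tree 1. The green trees that were lowest in ap_71580, trees 4 and 6, were the highest of all trees in ap_71394, at 6.75 and 5.95 CPM. The green trees that were highest in ap_71580, trees 5 and 1, were the lowest green trees in ap_71394, at 1.95 and 1.75 CPM.

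**Figure D4:**
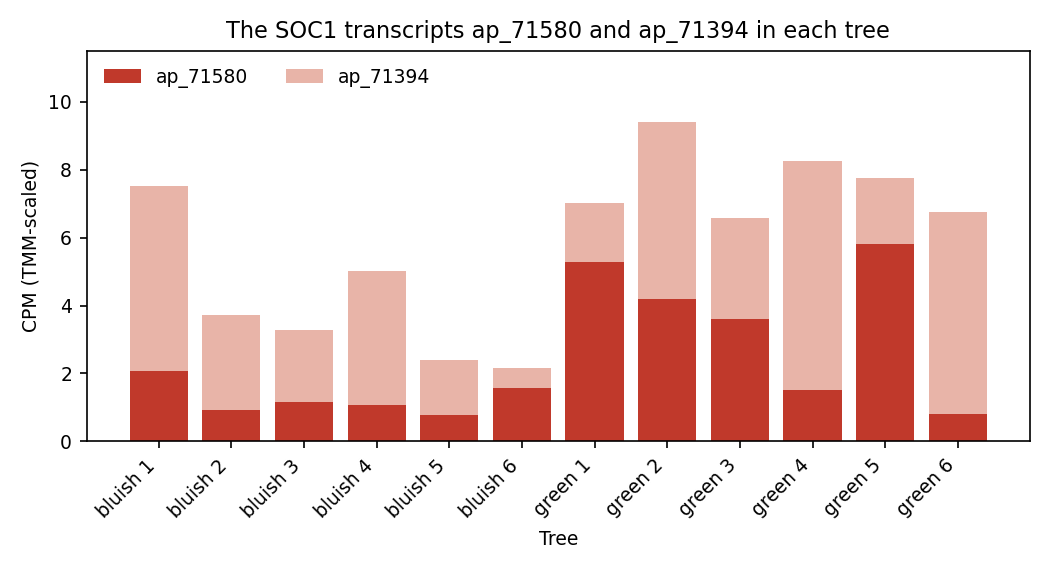
Stacked bars of the SOC1 transcripts ap_71580 (dark) and ap_71394 (light) in CPM for each tree. Green trees have sums between 6.58 and 9.40 CPM with ap_71580 taking from 12.1% to 75.1% of the counts, and the sums of bluish trees run from 2.16 to 7.53 CPM.

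In green trees the sum of the 2 SOC1 transcripts was 7.63 ± 1.07 CPM, a coefficient of variation of 14.1%, against 56.7% for ap_71580 and 52.5% for ap_71394 alone. In bluish trees the sum was 4.02 ± 2.00 CPM with a coefficient of variation of 49.8%, against 37.8% and 63.1%. The share of ap_71580 in the summed counts was 46.6% ± 27.1 in green trees, from 12.1% in tree 6 (Wilson interval 8.44% to 17.0%) to 75.1% in tree 1 (69.6% to 79.8%). In bluish trees it was 35.8% ± 18.8, and 5 of the 6 lay between 21.6% and 35.2%. Bluish tree 6 was at 72.9% (61.9% to 81.6%), and without it the mean share of bluish trees was 28.4%.

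Over the 12 trees with colour means subtracted, r of ap_71580 and ap_71394 was −0.43 (permutation p = 0.161, and 0.766 adjusted over 24 relations of the 3 transcripts among themselves and with the 7 regulators) and rho was −0.29 (permutation p = 0.408). Without green trees 1 and 5, r was −0.13, so that it rested on those trees. In green trees alone r was −0.81 (exact permutation p = 0.0542) and rho −0.83 (exact p = 0.0583), and in bluish trees r was 0.19 (exact permutation p = 0.729). For DAL19 and ap_71394 r was −0.42 over the 12 trees (permutation p = 0.183, adjusted 0.766), with rho −0.34 (permutation p = 0.317), and −0.10 without green trees 1 and 5. In green trees alone it was −0.87 (exact permutation p = 0.0319, not adjusted). Neither relation passed the correction over all trees, and the narrow sum of the green trees, noticed in the values, is given as a description.

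The truncated MADS-box transcript ap_14490 had a logFC of 0.59 (SE 0.334), from 4.65 ± 1.34 CPM in bluish against 3.09 ± 1.35 CPM in green trees. Leaving out green tree 3, its lowest tree at 0.783 CPM, gave a logFC of 0.39. In green trees 4 and 6, the green trees with low DAL19 and SOC1, it was at 3.01 and 4.18 CPM, inside the range of the other green trees. The APETALA 2-1 transcript ap_82587 had a logFC of −0.57 (SE 0.308), from 4.37 ± 1.21 CPM in bluish against 6.51 ± 3.31 CPM in green trees, and of −0.34 without green tree 3, its highest tree at 11.3 CPM.

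MFT1 (ap_10455) had the highest logFC of the 7, 0.83 (SE 0.261), from 3.98 ± 1.23 CPM in bluish against 2.25 ± 0.736 CPM in green trees, and 4 bluish trees lay above every green tree. The YABBY transcripts had logFC 0.69 (SE 0.290) for ap_5842 and 0.68 (SE 0.274) for ap_3315. Both were highest in bluish tree 2 and lowest in green tree 4.

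The Floricaula/leafy-like transcript ap_8745 ran from 1.10 to 7.04 CPM in bluish trees and from 0.867 to 6.62 CPM in green ones, a logFC of 0.53 (SE 0.494). Single trees moved this value, to 0.28 without bluish tree 6, 0.35 without green tree 5 and 1.02 without green tree 1. It was highest in bluish tree 6, green tree 1 and bluish tree 2, which were all among the 4 highest trees in Agamous-like, and lowest in green tree 5 and bluish tree 3, where Agamous-like had no count. Over the 12 trees with colour means subtracted, r of Agamous-like and ap_8745 was 0.70 (permutation p = 0.0166) and rho was 0.71 (permutation p = 0.0201). Adjusted over the 24 relations p was 0.199, so that the relation did not pass the correction, and r was 0.52 without bluish trees 3 and 6. It was 0.83 in bluish trees (exact permutation p = 0.05) and 0.54 in green trees (exact permutation p = 0.30). With the truncated MADS-box transcript, Agamous-like had r = 0.11 (permutation p = 0.713), with rho −0.16 (permutation p = 0.642).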

How the data were processed

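RNA-seq counts from needles of 6 bluish and 6 green trees were analysed, grouped by the titles of the libraries. The authors trimmed the paired reads with SeqTrimBB, assembled them with Trinity, mapped them to this assembly with BWA MEM and obtained raw read counts for each transcript with sam2counts, and these counts were deposited without normalization. BWA MEM places a read that fits several transcripts on 1 of them, so similar MADS-box contigs may exchange reads. Most low counts were even (76.0% of values from 1 to 29), so 2 counts were read as a read pair. Columns of other samples were not present. The deposited extraction text speaks of pine roots, and the label needles was used.

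Transcripts reaching 2 CPM in 2 or more libraries (23352) were tested with edgeR 4.0.16 (limma 3.58.1, R 4.3.3) by the quasi-likelihood test, with TMM factors between 0.947 and 1.04 and colour as the only term. The kept transcripts held between 98.66% and 99.26% of the counts. A test of all library pairs of a colour gave a chi-square of at least 33.6 per degree of freedom, so no library repeated another of its colour. Pairs of a bluish and a green library were not included. SEs are the logFC size divided by the square root of F. The text names the 3 members, 7 regulators picked by their description, and for each member the 3 transcripts of highest r. The members and lists were chosen with earlier results of these data known. Permutations of 12 trees used 100000 draws within colours, and those of 6 trees all 720 orders. The tests were checked on simulated data. Poisson and Wilson intervals are at 95% and cover counting error only. The alternatives used DESeq2 1.42.0, other edgeR tests, scalings, filters and pseudocounts, halved counts, the tree number as a block and left-out trees. Python 3.11.15, numpy 2.4.6, pandas 2.3.3, scipy 1.17.1 and matplotlib 3.10.9 were used. The authors' own fold changes and p-values were not used.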

Additional observations from a re-analysis of the deposited data

Results flagged for a closer look

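The YABBY transcript ap_5842 was at 5.41 CPM in green tree 1, and the next green tree was at 2.92 CPM, a gap of 0.665 of the range of the 6 green trees, above the limit of 0.625 for an outlying sample. This was 1 of 20 groups of trees examined (10 transcripts in each colour), and chance flags about 1 in 20 groups. None of DAL19, SOC1 and Agamous-like had such a tree in either colour.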

How the results depend on the processing

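The count of 0 of the 3 transcripts called held under 25 of 26 alternatives, and rose to 3 by the exact test with a common dispersion. Some of these counts could not have been other than 0. With 2 CPM required in 6 libraries, none of the 3 transcripts was kept for testing. DAL19 was not tested without green tree 1 or 5, nor Agamous-like without bluish tree 2 or 6. For the transcripts left out, those settings decide nothing. The count of 0 of the 7 other regulators held under all 26. Over these 26 settings, between 0% (tree number as a block) and 1.94% (exact test with a common dispersion) of all transcripts were called. With shares this low, a count of 0 of 7 was likely beforehand, and nothing is read from it. Without each tree in turn, r of DAL19 and SOC1 after subtraction of colour means was between 0.89 and 0.96, that of DAL19 and Agamous-like between −0.15 and 0.17, and that of SOC1 and Agamous-like between −0.217 and 0.0822. Under all 19 alternatives r of DAL19 and SOC1 stayed positive, between 0.89 and 0.98, with an adjusted permutation p of at most 0.015. The relations with Agamous-like changed sign under some settings, with adjusted permutation p of at least 0.65 throughout. DAL19 and Agamous-like had r = −0.0211 without the 2 trees farthest from the median, and SOC1 and Agamous-like had r = 0.0173 without green trees 3 and 4 together, chosen for this relation after seeing the data. The mean share of ap_71580 was between 28.4% and 38.6% in bluish trees and between 40.9% and 53.5% in green trees without each tree. With the tree number of the labels as a block, r was 0.96 for DAL19 and SOC1 and 0.16 for SOC1 and Agamous-like, and 0 transcripts were called. The trees share only a number: correlations of same-numbered trees were between −0.14 and 0.11, and 1 of the 6 bluish trees correlated best with its own number. DAL19 fell below the filter without green tree 1 or 5, and Agamous-like without bluish tree 2 or 6. For these trees the logFC was computed with no filter, chosen after seeing the data, and was −1.56 and −1.54 for DAL19 and 1.39 and 1.30 for Agamous-like. Depth limits the low values, with about 8 read pairs of DAL19 in each of bluish trees 2 and 3 and no read of Agamous-like in 5 trees.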
